A study of Mus musculus with 13 samples.

Results

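Principal cells are the nuclei that the deposited annotation of the snATAC-seq data puts in the cluster named PC, which holds 1325 of 28316 nuclei, or of 27652 nuclei in 13 named cell types. At P0, 394 and 350 of them came from 2 samples, while 103 came from a single P21 sample and 266 and 212 from a pair of P56 samples, so that 744 newborn nuclei stood against 581 nuclei of the adult group, which joins P21 and P56. The study mapped open chromatin in single nuclei of untreated mouse kidneys. For these samples, strain, genotype and the number of animals are not given in the sources used here (the methods name wild type and C57BL/6 mice for the study's scRNA-seq), and p-values measure only the spread between these samples. The adult mice were perfused with PBS and a piece of 0.25 g was lysed in 5 mL, whereas both kidneys of newborns, called 1-day-old in the protocol and P0 in the labels, were lysed in 2 mL without perfusion being mentioned, so stage and preparation cannot be told apart.

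Principal cells line the collecting duct, where they take up water through aquaporins under vasopressin and sodium through the epithelial sodium channel under aldosterone. They descend from the ureteric bud, whose growing tips carry the receptor Ret and its co-receptor Gfra1, answer GDNF from the surrounding mesenchyme and branch, while the stalk behind the tip differentiates. At birth branching has not ended, and the newborn cluster therefore can hold cells of the bud beside young principal cells. Access to chromatin at a gene was measured here, not its transcript.

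An open call is a peak with at least 1 fragment in a nucleus, and these calls were summed over the principal cell nuclei of each sample. Gene activity is the sum over the peaks of the gene body and 2 kb upstream. Levels are given in CPM, open calls in 1000000 of the sample's calls over the tested peaks or genes. They follow TMM scaling, which sets a factor for the depth and composition of each sample's sum. A nucleus adds at most 1 call to a peak, so this factor does not equalise the depth of single nuclei. Fold changes are log2 values of P0 over adult with their SE, and a peak or gene was called at an adjusted p of 0.05 in edgeR's quasi-likelihood test with Benjamini-Hochberg adjustment over all features tested.

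Stretches of 6 called peaks are shown that lie at or near the water channel gene, a clock gene, a tip gene and Wnt targets. No link between a peak and a gene was tested. Each is 300 bases of the plus strand of mm10 (RefSeq GRCm38.p6), and capitals mark the letters of a searched motif on either strand. The first, chr15:99578755-99579054, ends at the base before the Aqp2 start, and the second, chr15:99586831-99587130, lies between Aqp2 and Aqp5. The third, chr11:98774005-98774304, is in an intron of Nr1d1. The fourth, chr6:118225323-118225622, lies between genes, upstream of Ret, the fifth, chr8:88570626-88570925, in an intron of Nkd1, and the sixth, chr3:131072752-131073051, between genes upstream of Lef1.
Aqp2 start: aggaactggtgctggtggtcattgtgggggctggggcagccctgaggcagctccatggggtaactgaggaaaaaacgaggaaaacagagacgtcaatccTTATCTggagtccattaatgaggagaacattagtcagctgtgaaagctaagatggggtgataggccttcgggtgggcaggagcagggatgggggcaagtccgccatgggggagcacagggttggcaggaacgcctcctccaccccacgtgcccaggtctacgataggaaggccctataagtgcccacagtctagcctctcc
downstream of Aqp2: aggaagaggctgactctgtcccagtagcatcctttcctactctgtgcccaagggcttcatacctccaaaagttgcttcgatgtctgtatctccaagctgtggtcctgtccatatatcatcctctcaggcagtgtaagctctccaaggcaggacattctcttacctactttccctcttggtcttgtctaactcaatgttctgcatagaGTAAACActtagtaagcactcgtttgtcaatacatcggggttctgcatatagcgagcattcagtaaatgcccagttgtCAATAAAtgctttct
inside Nr1d1: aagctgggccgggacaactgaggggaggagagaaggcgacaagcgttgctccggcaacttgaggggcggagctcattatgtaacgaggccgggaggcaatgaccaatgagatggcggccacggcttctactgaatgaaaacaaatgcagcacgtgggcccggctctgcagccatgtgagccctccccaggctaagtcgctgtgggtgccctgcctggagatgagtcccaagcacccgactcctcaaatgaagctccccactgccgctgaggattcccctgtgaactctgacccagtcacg
upstream of Ret: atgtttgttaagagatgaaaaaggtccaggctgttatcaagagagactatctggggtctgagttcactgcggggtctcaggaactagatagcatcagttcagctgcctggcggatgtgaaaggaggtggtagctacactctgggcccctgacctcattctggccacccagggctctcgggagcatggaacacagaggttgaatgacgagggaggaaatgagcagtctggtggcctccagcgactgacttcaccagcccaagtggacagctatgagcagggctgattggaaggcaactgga
inside Nkd1: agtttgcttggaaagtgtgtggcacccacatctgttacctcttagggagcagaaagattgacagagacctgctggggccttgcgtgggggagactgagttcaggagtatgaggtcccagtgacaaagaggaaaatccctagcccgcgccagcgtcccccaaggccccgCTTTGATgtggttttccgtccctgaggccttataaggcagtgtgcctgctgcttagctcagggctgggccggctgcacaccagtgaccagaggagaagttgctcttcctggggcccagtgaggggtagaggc
upstream of Lef1: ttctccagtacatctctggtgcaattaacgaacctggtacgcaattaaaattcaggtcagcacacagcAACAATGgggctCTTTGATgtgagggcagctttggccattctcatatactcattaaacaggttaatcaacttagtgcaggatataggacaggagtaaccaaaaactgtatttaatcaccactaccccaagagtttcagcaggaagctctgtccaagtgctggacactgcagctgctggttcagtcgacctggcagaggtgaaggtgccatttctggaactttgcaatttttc
The first 3 were more open in adult nuclei and the last 3 at P0. Of the motifs searched, the Aqp2 stretch held a GATA match (AGATAA), the one downstream of Aqp2 a FOX (TGTTTAC) and a posterior HOX match (TTTATNG), the Nkd1 stretch a TCF/LEF match (CTTTGAT) and the Lef1 stretch a TCF/LEF and a SOX match (AACAATG). The Ret and Nr1d1 stretches held none of the letters searched. The Nkd1 and Lef1 peaks were picked among peaks called at P0 that hold TCF/LEF letters, so their TCF/LEF matches were fixed by that choice. Of all 24459 tested peaks away from starts, 13.5% held GATA, 4.86% FOX, 12.3% posterior HOX, 4.56% TCF/LEF and 3.97% SOX letters in their central 300 bases. The Aqp2 stretch is not of that kind, since it lies in a peak over a start and off that peak's centre, and GATA letters stood in the central 300 bases of 10.1% of all 40576 peaks tested.

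Summed open calls in principal cells were 2678332 and 2666471 for the newborn samples, against 543597 (P21), 857904 and 1421266 for adults. The median nucleus had 6554.5 and 7369 open peaks at P0, against 4606, 2839.5 and 6027.5 in the adult samples. The cluster made up 6.66% and 6.53% of the nuclei in named cell types at P0 and 3.17%, 3.84% and 3.42% in the adult samples, with exact 95% intervals from 6.04% to 7.33% in the first and from 2.59% to 3.83% in the P21 sample. The stages did not overlap in either measure. The two-sided exact permutation p was taken as the smaller one-sided p doubled. It was 0.2 for both, the lowest value that 2 samples against 3 allow on that rule. No principal cell barcode was shared between samples, although any pair of samples shared 24 to 73 barcodes over all nuclei. Log2 CPM over the 40576 tested peaks, which differ in depth between samples, correlated at 0.947 between the P0 samples, at 0.738 to 0.829 among the adult samples and at 0.578 to 0.618 across the stages.

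The label was checked against 15 principal cell genes, such as Aqp2, Aqp3, Avpr2, Scnn1g and Hsd11b2. Sums over lists were set against other clusters on another scale than the rest, as CPM of all calls in the cluster's peaks without TMM scaling, and such values are called summed activity. The summed activity of the 15 genes was 799 and 832 CPM at P0 and 1028, 1264 and 1373 CPM in adult samples, with a median over the other 12 clusters of 243 to 295 CPM. The cluster ranked first of the 13 in both P56 samples, second at P21 and in a P0 sample, and 3 in the other (P0 replicate 2 and 1). By the mean over all 5 samples, it was the highest cluster for 5 of the 15 genes. Scnn1b, Scnn1g, Hsd11b2, Ptges, Kcne1 and Stc1 were highest in the connecting tubule cluster. The check is not independent, because the study named its clusters from access at marker genes in these data, Aqp2 and Fxyd4 among them for principal cells. For 14 ureteric tip genes the sum was 899 and 895 CPM at P0, the highest of the 13 clusters in both samples, and 515, 479 and 479 CPM in the adult samples, where the cluster ranked 10, 8 and 10. The median of the other clusters for these genes was 625 and 642 CPM at P0 and 556, 496.5 and 512 CPM in the adult samples, so it was also higher at P0. By the mean over all 5 samples, principal cells were the highest cluster for 1 of the 14 genes and among the top 3 for 7. No gene of either list was at 0 at either stage. For 9 urothelial genes the cluster ranked first in all 5 samples, at 192 to 224 CPM against a median of 90.3 to 140 CPM in the other clusters. The annotation has no urothelial cluster.

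Across 40576 peaks tested, 6801 (16.8%) were more open at P0 and 5140 (12.7%) in adult principal cells, together 29.4%. At least 4-fold differences were found in 2715 and 1204 of them. Of 17949 genes, activity was higher at P0 for 3254 (18.1%) and in adult nuclei for 2302 (12.8%), together 31.0%, with median log2 fold changes of 1.20 and -0.62 among the called genes and -0.004 over all tested. A 4-fold difference was reached by 511 genes at P0 and by 44 in adult nuclei. Both P0 samples lay above every adult sample for 28.5% of all genes tested, called or not, and below every adult sample for 24.5%. A feature could pass the filter on low counts through the stage where it was open, and the newborn sums were deeper; their part in these counts was not tested. With 103 nuclei drawn from every sample, 1733 genes were higher at P0 and 1013 in adult nuclei.

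Most genes of the principal cell list were more open in adult nuclei. Of 15 principal cell genes, 11 were higher in adult nuclei and none at P0 (12.8% and 18.1% over all genes), and the list's median log2 fold change was -0.78. This list and those below were chosen with earlier results of these data known, so their shares describe the lists and test nothing. Of the 11, 10 stayed called without the P21 sample, 9 without P56 replicate 2, 5 in DESeq2 and, with a single P0 sample left, 3 or 2. Aqp2, the vasopressin-regulated water channel of the apical membrane, stood at 27 and 32.0 CPM at P0 and at 107 (P21), 109 and 123 CPM in adult samples. The stages did not overlap, and the log2 fold change was -1.96 ± 0.17 (edgeR, adjusted p = 1.05e-06).

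Aqp4, Aqp3 and the vasopressin receptor gene were also higher in adult nuclei. Aqp4, a basolateral water channel, had 27.8 and 30.8 CPM at P0 and 45.6, 60.4 and 45.6 CPM in adult samples. Aqp3, its basolateral partner, had 30.8 and 45.1 CPM at P0 and 51.5, 48.6 and 92.0 CPM in adult samples, a log2 fold change of -0.85 ± 0.25 without overlap. Avpr2, the vasopressin receptor of this cell, had 15.8 and 9.69 CPM at P0 against 25.8, 38.1 and 24.8 CPM (log2 fold change -1.19 ± 0.31).

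**Figure D1:**
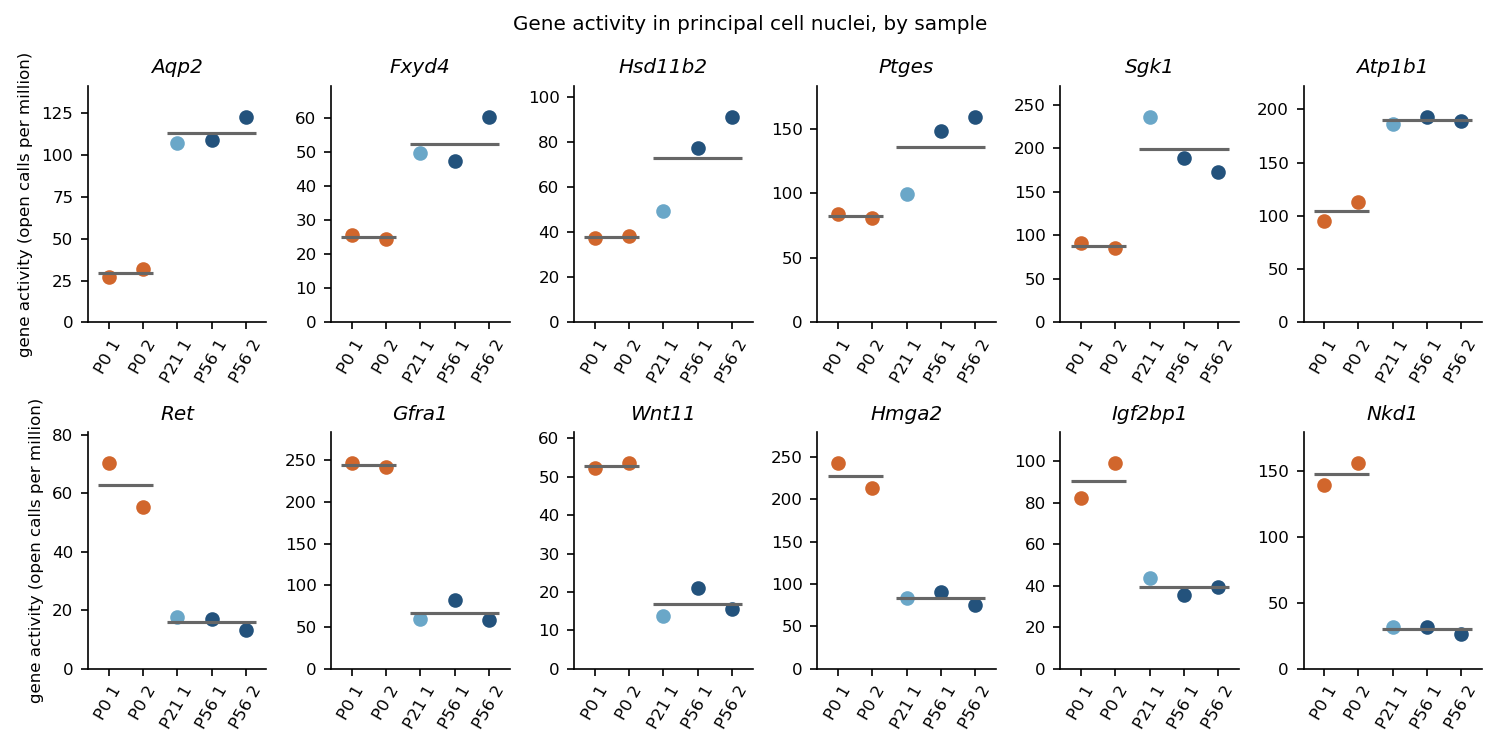
Gene activity of 12 genes in principal cell nuclei, in CPM on a linear axis, with 1 point per sample (orange P0, light blue P21, dark blue P56) and a line at the mean of the 2 P0 or 3 adult samples. Aqp2, Fxyd4, Hsd11b2, Ptges, Sgk1 and Atp1b1 are higher in every adult sample, and Ret, Gfra1, Wnt11, Hmga2, Igf2bp1 and Nkd1 in both P0 samples; at P21, Hsd11b2 (49.6) and Ptges (99.1) lie nearer to the P0 points.

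Genes of sodium and potassium handling were also more open in adult nuclei. Of 25 genes of salt, water and urea transport, 16 were higher in adult principal cells and 1 at P0 (64% and 4%, against 12.8% and 18.1% of all genes), with a median log2 fold change of -0.64; 8 of the 25 also stand in the principal cell list. Sgk1, the aldosterone-induced kinase that keeps the sodium channel at the membrane, had 90.7 and 85.5 CPM at P0 and 236, 189 and 172 CPM in adult samples (log2 fold change -1.14 ± 0.15). Fxyd2, a regulatory subunit of the sodium pump, had 19.7 and 15.2 CPM at P0 and 89.2, 48.6 and 78.1 CPM in adult samples, and the pump subunit Atp1b1 rose from 95.4 and 113 CPM to 186, 193 and 190 CPM. The potassium channel gene Kcnj16, which acts at the basolateral membrane, had 54.8 and 60.7 CPM at P0 and 105, 125 and 119 CPM in adult samples.

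The subunits of the epithelial sodium channel did not pass together. Scnn1a had 62.9 and 59.4 CPM at P0, 77.3 CPM at P21 and 147 and 143 CPM at P56, and Scnn1g had 52.2, 52.7, 59.5, 95.9 and 95.1 CPM in the same order, both called. Scnn1b had 100 and 107 CPM at P0, 55.5 CPM at P21 and 167 and 159 CPM at P56 and was not called (adjusted p = 0.179 in edgeR), its P21 value lying below both P0 values. Without the P21 sample the log2 fold change of Scnn1b was -0.66 and was called.

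The P21 sample split the genes named next, of which Tfcp2l1 is from the list of collecting duct factors and the others from the transport list. They were picked, and no tally over the whole transport list is given. Hsd11b2, the enzyme that shields the mineralocorticoid receptor from glucocorticoids, had 37.7 and 38.3 CPM at P0, 49.6 CPM at P21 and 77.5 and 91.3 CPM at P56. Kcnj1, the secretory potassium channel of the apical membrane, had 56.5 and 58.6, then 61.5, then 110 and 121 CPM, and the transcription factor gene Tfcp2l1 164 and 167, then 182, then 338 and 281 CPM. Aqp2, Sgk1, Fxyd4 and Atp1b1 stood at 107, 236, 49.6 and 186 CPM at P21, nearer to the lower P56 values of 109, 172, 47.3 and 189.5 CPM than to P0. With 1 sample at P21 these values have no replicate check.

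The single transport gene that was higher at P0 was Slc14a2, the urea transporter gene of the inner medulla, at 221 and 254 CPM against 228, 160 and 132 CPM, with the P21 value between the P0 values. The receptor pathway that drives Aqp2 did not move as a group. Of 20 genes of vasopressin and cAMP signalling, 4 were higher at P0 and 2 in adult nuclei, 20% and 10% against 18.1% and 12.8% of all genes. The adenylyl cyclase gene Adcy6 was higher in adult samples (106 and 115 CPM at P0; 131, 159 and 176 CPM), and Adcy3 was higher at P0 (74.9 and 67.8 CPM; 21.8, 21 and 31.7 CPM), as was the phosphodiesterase gene Pde4a.

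**Figure D2:**
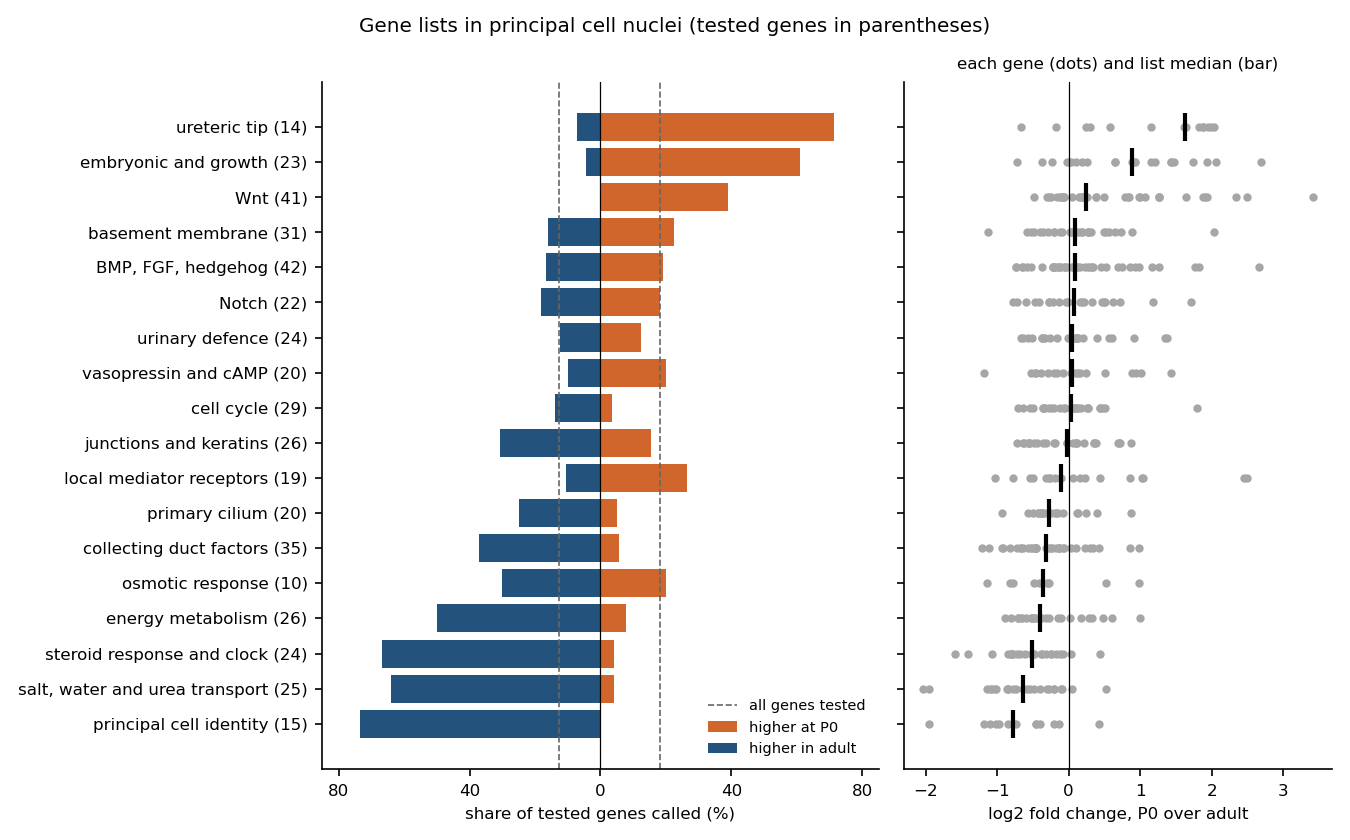
Left, share of the tested genes of each list that was called higher at P0 (orange, right of 0) or in adult principal cells (blue, left of 0), in percent, with dashed lines at the shares over all genes tested (18.1% and 12.8%). Right, log2 fold change of each gene (dot) and the list median (bar); medians run from 1.63 for the ureteric tip list to -0.78 for the principal cell list.

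Genes of the ureteric tip were more open at P0, and their summed activity was also higher then in the median of the other clusters, as given above. Of 14 tip genes, 10 were higher at P0 (71.4%, against 18.1% of all genes) and 1, the homeobox gene Emx2, in adult nuclei (7.14%, against 12.8%), with a median log2 fold change of 1.63. Of these 11, 9 stayed called in DESeq2 and 10 without P56 replicate 2. With equal numbers of nuclei 9 of the 10 that could be fitted stayed called, and with thinned nuclei 4 of 7. Some lost their call with either P0 sample left out. Ret, the receptor for GDNF, had 70.2 and 55.2 CPM at P0 and 17.8, 17.1 and 13.2 CPM in adult samples, without overlap (log2 fold change 2.03 ± 0.24, adjusted p = 1.94e-05 in edgeR). Its co-receptor Gfra1 had 247 and 242 CPM at P0 against 59.5, 82.8 and 58.8 CPM, a log2 fold change of 1.88 ± 0.15.

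Targets of Ret signalling moved less evenly. Wnt11, a tip ligand that acts back on the mesenchyme, had 52.2 and 53.5 CPM at P0 and 13.9, 21 and 15.5 CPM in adult samples. The ETS factor gene Etv4 had 65.5 and 72.5 CPM at P0 against 27.8, 26.3 and 35.6 CPM, while its relative Etv5 differed less, with a log2 fold change of 0.57 ± 0.14. Sox8 and Sox9, which act beneath Ret in branching, were both called at P0 with log2 fold changes of 1.89 ± 0.29 and 1.95 ± 0.31. The feedback inhibitors Spry1 and Dusp6 and the factor gene Lhx1 were not called, with log2 fold changes of 0.24, 0.30 and -0.18.

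Shares of nuclei gave the same order for the 2 genes that define these lists. At least 1 peak of the Aqp2 window was open in 14.7% and 20.3% of P0 nuclei and in 48.5%, 29.3% and 61.8% of adult nuclei, and after thinning each nucleus to 1000 open peaks in 1.54%, 3.21%, 12.2%, 8.59% and 15.1%. At least 1 peak of the longer Ret window was open in 31.2% and 31.4% of P0 nuclei and in 7.77%, 4.89% and 8.02% of adult nuclei, and after thinning in 8.74%, 4.96%, 1.02%, 1.17% and 2.36%. Thinning left out 5, 7, 5, 10 and 0 nuclei with fewer open peaks. The start peak of Aqp2 was open in at most 0.276% of podocyte nuclei in any sample, at median depths of 2613 to 5017 open peaks, and in at most 0.696% of endothelial nuclei, but in 9.63% and 9.90% of connecting tubule nuclei at P0, beside principal cell shares of 11.2% and 14.6%, and in 8.50% to 16.5% of them in adult samples. The start peak of Ret was open in 3.58% and 4.70% of podocyte and in 8.89% and 7.92% of connecting tubule nuclei at P0, against 16.2% and 14.9% of principal cells.

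Among factors that set collecting duct identity, more were open in adult than in newborn nuclei. Of 35 genes, 13 were higher in adult nuclei and 2 at P0 (37.1% and 5.71%, against 12.8% and 18.1% of all genes), with a median log2 fold change of -0.31. Gata2, a factor required for Aqp2 expression, had 79.6 and 80.04 CPM at P0 and 153, 156 and 196 CPM in adult samples (log2 fold change -1.11 ± 0.14). Nfat5 (the factor of the response to hypertonic medium), Pax2 and Elf3 were also called in adult nuclei, with log2 fold changes from -0.63 to -0.82. Gata3, the factor needed for the nephric duct, stood at 215 and 209 CPM at P0 and 230, 181 and 276 CPM in adult samples, where the stages overlapped, and was called in adult nuclei only without P56 replicate 1 (log2 fold change -0.31). The genes higher at P0 were Bach2 (291 and 286 CPM against 174, 152 and 154 CPM) and Tfap2c.

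Genes of embryonic growth were higher at P0 for 14 of 23 tested and in adult nuclei for 1, the growth factor receptor gene Igf1r (60.9% and 4.35%, against 18.1% and 12.8% of all genes), with a median log2 fold change of 0.89. Hmga2, a chromatin protein of fetal tissue, had 243 and 213 CPM at P0 and 83.3, 90.6 and 75.8 CPM in adult samples. Igf2bp1, a fetal RNA-binding protein that stabilises growth transcripts, had 82.2 and 99.0 CPM against 43.6, 35.5 and 39.5 CPM, and Sox11, a factor of progenitor cells, 38.5 and 43.0 CPM against 11.9, 5.25 and 4.64 CPM. Lin28b, which blocks let-7 miRNAs, was at 21.4 and 20.2 CPM at P0 against 7.93, 9.20 and 10.1 CPM. No adult value of these 4 genes reached the lower P0 value, which also held for 28.5% of all genes tested.

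Of 29 cell cycle genes, 1 (3.45%) was higher at P0 and 4 (13.8%) in adult nuclei, against 18.1% and 12.8% of all genes, with a median log2 fold change of 0.04. Ccnd2, a G1 cyclin, had 71.0 and 72.5 CPM at P0 and 15.9, 21 and 22.4 CPM in adult samples, whereas Ccnd1 had 82.2 and 79.6 CPM against 85.3, 118 and 135 CPM. The inhibitor gene Cdkn1b and the E2F factor gene E2f2 were called in adult nuclei. Mki67 and Top2a, which mark dividing cells by their transcripts, had log2 fold changes of 0.28 ± 0.22 and -0.35 ± 0.20 and were not called.

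Of 41 Wnt pathway genes, 16 were higher at P0 (39.0%, against 18.1% of all genes) and none in adult nuclei (against 12.8%), with a median log2 fold change of 0.24. Nkd1, an inhibitor that Wnt signalling induces, had 140 and 156 CPM at P0 and 31.7, 31.5 and 26.3 CPM in adult samples (log2 fold change 2.34 ± 0.17, adjusted p = 2.41e-07 in edgeR). Lgr6 and Lgr5, receptors for R-spondins, had log2 fold changes of 2.49 ± 0.21 and 1.93 ± 0.20, and the Wnt5a receptor gene Ror2 of 1.91 ± 0.15.

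The nuclear factor gene Lef1 had 60.8 and 61.9 CPM at P0 and 17.8, 9.20 and 20.9 CPM in adult samples, and Axin2, a Wnt target that feeds back on the pathway, 62.1 and 81.7 CPM against 47.6, 42.0 and 38.7 CPM. Rspo1, an R-spondin ligand, had 20 and 23 open calls at P0 and 0, 1 and 1 in adult samples. The ligand genes of the collecting duct itself, Wnt7b and Wnt9b, were not called, at 135 and 150 CPM against 147, 154 and 158 CPM and at 128 and 143 CPM against 113, 169 and 162 CPM. Ctnnb1, which encodes β-catenin, was not called either, with a P56 sample at 76.6 CPM and the 4 other samples between 33.7 and 38.9 CPM; without P56 replicate 1 it was called in adult nuclei (log2 fold change -0.77).

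Of 22 Notch genes, 4 were higher in each direction, and of 42 BMP, FGF, TGF-β and hedgehog genes, 8 were higher at P0 and 7 in adult nuclei, against 18.1% and 12.8% of all genes. Lfng, which modifies Notch receptors (72.8 and 72.5 CPM against 29.7, 19.7 and 20.1 CPM), Notch1 and the ligand gene Jag2 were higher at P0. Adam10, the protease that releases Notch, the coactivator gene Maml1 and the target gene Hes1 were higher in adult nuclei. In the second list, Spry4 and Fgf13 were called at P0 with log2 fold changes of 1.77 and 2.66, and the growth factor receptor genes Egfr and Met in adult nuclei with -0.74 and -0.65.

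Steroid-responsive and clock genes were more open in adult nuclei for 16 of 24 and at P0 for 1, Npas2 (66.7% and 4.17%, against 12.8% and 18.1% of all genes), with a median log2 fold change of -0.51. Zbtb16, a repressor induced by glucocorticoids, had 112 and 103 CPM at P0 and 272, 327 and 359 CPM in adult samples (log2 fold change -1.59 ± 0.14, adjusted p = 1.85e-06 in edgeR). Nr1d1, the clock repressor REV-ERBα, had 77.9 and 87.2 CPM against 206, 185 and 257 CPM, and Klf9, Per1, Per2 and Dbp were called in the same direction. The hour of the day at which kidneys were taken is not given in the sources used here, and its part in the clock genes was not tested.

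Energy genes had 13 of 26 members higher in adult nuclei and 2 at P0 (50% and 7.69%, against 12.8% and 18.1% of all genes), with a median log2 fold change of -0.40. Ppargc1a, a coactivator of mitochondrial genes, had 94.2 and 84.3 CPM at P0 and 137, 163 and 163 CPM in adult samples. The hexokinase genes went opposite ways: Hk2 was higher at P0 (75.8 and 67.0 CPM against 41.6, 39.4 and 30.2 CPM) and Hk1 in adult nuclei (152 and 160 CPM against 202, 255 and 270 CPM). Of 26 junction and keratin genes, 8 were higher in adult nuclei (30.8%, against 12.8% of all genes), among them the cadherin genes Cdh1 and Cdh16, and 4 at P0 (15.4%, against 18.1%), among them Cdh2, the cadherin that mesenchyme also carries.

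Other lists had calls in both directions, to be read against 18.1% at P0 and 12.8% in adult nuclei over all genes. Of 31 basement membrane genes, 7 were higher at P0, such as Frem1 and Lama1, and 5 in adult nuclei, such as the collagen IV genes Col4a3 and Col4a4. For receptors of local mediators it was 5 and 2 of 19, with the endothelin receptor gene Ednra at 38.5 and 34.5 CPM at P0 against 3.96, 2.63 and 10.1 CPM. For osmotic response genes it was 2 and 3 of 10, for cilium genes 1 and 5 of 20, and for urinary defence genes 3 and 3 of 24.

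Genes of other cell types were counted as well. Among markers of other nephron and stromal types, those higher at P0 were 5 of 9 for nephron progenitors, 4 of 7 for podocytes, 4 of 9 each for endothelium and stroma, 1 of 5 for immune cells and 1 of 6 for urothelium, with none higher in adult nuclei in these lists, against 18.1% and 12.8% over all genes. For nephron tubules the counts at P0 and in adult nuclei were 4 and 4 of 12 for intercalated cells, 0 and 3 of 7 for the connecting tubule, 1 and 2 of 9 for the distal tubule and loop, and 1 and 3 of 12 for the proximal tubule. Summed activity in principal cells at P0 was 228 and 226 CPM for nephron progenitor genes against 167, 139 and 134 CPM in adult samples, 373 and 384 against 258, 224 and 228 CPM for podocyte genes, and 159 and 163 against 101, 90.9 and 84.4 CPM for stromal genes. The median of the other 12 clusters moved alike, at 272 and 273 against 180, 182 and 171 CPM for the nephron progenitor genes.

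Of the 3 proximal tubule genes higher in adult nuclei, Hnf4a and Slc34a1 overlapped between the stages. Hnf4a had 22.7 and 20.6 CPM at P0, 89.2 CPM at P21, and 22.3 and 86.6 CPM at P56, and Slc34a1 23.5 and 21.9, then 81.3, then 22.3 and 66.5 CPM. The third, Slc5a12, had 2.57 and 3.37, then 23.8, then 6.57 and 25.5 CPM, with every adult sample above P0. The summed activity of 13 proximal genes in principal cells was 293 and 284 CPM at P0, 548 CPM at P21, and 223 and 476 CPM at P56. The samples highest for these genes were the P21 sample and P56 replicate 2, and their part in the stage differences was not tested. None of the genes in these lists was at 0 in the summed nuclei of either stage.

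Around the Aqp2 start, 8 peaks within 50 kb were tested and 6 were called, all more open in adult nuclei. The start peak (chr15:99578527-99579477) was open in 11.2% and 14.6% of P0 nuclei and in 46.6%, 27.4% and 58.5% of adult nuclei, with a log2 fold change of -2.22 ± 0.19. The peak 7926 bp downstream of the start (chr15:99586575-99587388), part of which is printed above, was open in 7.11% and 7.71% against 36.9%, 14.3% and 30.7%, with a log2 fold change of -2.22 ± 0.26. The lowest adult share in both peaks was that of P56 replicate 1, whose nuclei were the shallowest. The peaks over the Aqp5 start and 17485 bp downstream were not called (log2 fold changes of -0.17 ± 0.40 and 0.03 ± 0.27).

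At Ret, 3 peaks within 50 kb were tested and 2 were called, both more open at P0. The start peak (chr6:118196752-118197769) was open in 16.2% and 14.9% of P0 nuclei and in 2.91%, 1.88% and 1.42% of adult nuclei, with a log2 fold change of 2.51 ± 0.41. The peak farther upstream (chr6:118225141-118225805) was open in 7.61% and 10.0% of P0 nuclei and, of 581 adult nuclei, in 1. Pooled over the samples of each stage, the ratio of call rates was 36.0, with an exact 95% counting interval from 6.24 to 1443. That interval takes single calls as its units and leaves out the spread between samples, so it does not test the stage difference. The Ret peak 17740 bp into the gene was not called.

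**Figure D3:**
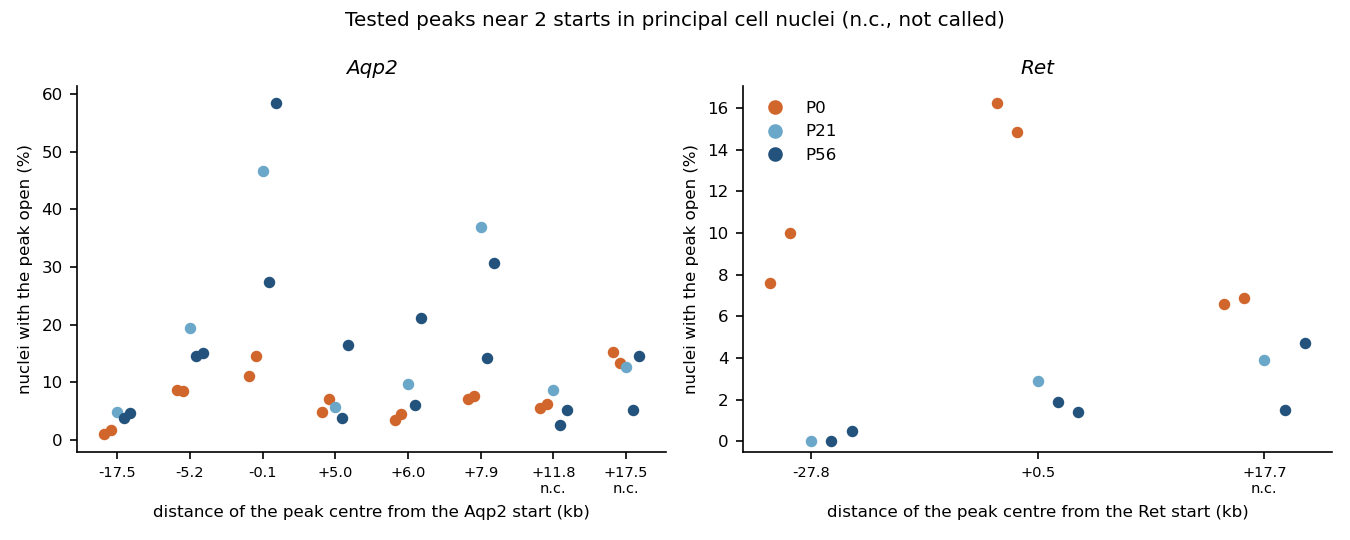
Share of principal cell nuclei (%, linear axis) with each tested peak open, within 50 kb of the Aqp2 and Ret starts, 1 point per sample, ordered by distance of the peak's centre from the start in kb (not to scale, negative upstream). Adult points stand above P0 points at the Aqp2 start (27.4% to 58.5% against 11.2% and 14.6%), and P0 points stand above adult points at both called Ret peaks.

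By size of change, the genes higher at P0 were led by Gng2, a G protein subunit, at 94.6 and 97.7 CPM against 17.8, 22.3 and 9.28 CPM (log2 fold change 2.67 ± 0.24). Lgr6, Zfp536, Sema5b, Chst3, Prtg, Trim71, Nkd1, Gli2 and Tmem132c followed, with log2 fold changes from 2.49 to 2.21. Gli2 transmits hedgehog signals, Sema5b is a guidance molecule, Chst3 a sulfotransferase, and Trim71 a repressor of differentiation that let-7 controls. Gli2 had 198 and 195 CPM at P0 and 41.6, 34.2 and 47.2 CPM in adult samples, and Trim71 88.6 and 81.7 CPM against 21.8, 7.88 and 19.3 CPM. These 10 were taken from 798 protein-coding genes that were called, did not overlap between the stages and lay above the median level of 41.55 CPM.

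In adult nuclei, of 1687 such genes, Ces1d, a carboxylesterase, changed most, at 19.3 and 19.4 CPM against 85.3, 88.0 and 71.2 CPM (log2 fold change -2.04 ± 0.20). Fxyd2, Aqp2, Med9, Celf3, Zbtb16, Dnase1l2, Rmdn3, Riiad1 and Nr1d1 followed, with log2 fold changes from -2.03 to -1.41. Celf3 and Riiad1 overlap on chromosome 3 and share peaks, so that their values (61.5, 70.9 and 58.0 CPM for Celf3 in adult samples, 81.3, 72.2 and 65.7 CPM for Riiad1) are not independent.

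Among peaks open in at least 20% of nuclei in every sample of the higher stage, 487 were eligible at P0 and 416 in adult nuclei. The P0 peak with the largest fold (chr17:83999052-83999687), whose nearest start is that of Haao, was open in 21.8% and 23.7% of P0 nuclei and in 1 adult nucleus. Pooled over the samples of each stage, the ratio of call rates was 93.6, with an exact 95% counting interval from 16.6 to 3718. As at Ret, that interval leaves out the spread between samples, and the peak was picked for its fold. An intron peak of Babam2 was open in 24.9% and 25.7% of P0 nuclei and in 3 adult nuclei. Start peaks of Magi1, a junction scaffold, Cldn9, a claudin, and Slc8a2, a sodium-calcium exchanger, were also among these 8, with log2 fold changes of 4.06 ± 0.42, 3.92 ± 0.35 and 3.56 ± 0.45. A distal peak nearest to Piwil1 (4.10 ± 0.47) and an intron peak of Ptprt (4.07 ± 0.44) were the others described here.

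Among the 416 eligible peaks in adult nuclei the Aqp2 start peak had the largest fold, followed by the intron peak of Nr1d1, open in 12.9% and 21.4% of P0 nuclei and in 45.6%, 22.6% and 59.9% of adult nuclei (log2 fold change -1.74 ± 0.19). An intron peak of Col18a1, a basement membrane collagen, was open in 14.5% and 16.3% against 30.1%, 24.8% and 50.5%. A peak 68390 bp from the Axin2 start was more open in adult nuclei (log2 fold change -1.56 ± 0.21), while the activity of Axin2 itself was higher at P0. The remaining adult peaks lay in introns of Tbc1d10a and Plekha7, in an exon of Pomgnt1 and nearest to Cdk18, with log2 fold changes from -1.28 to -1.63.

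The Nkd1 and Lef1 peaks printed above were chosen after their values were seen, among called peaks that hold TCF/LEF letters. The Nkd1 peak stood at 21.4 and 29.6 CPM at P0 and at 2.57, 1.54 and 4.79 CPM in adult samples (log2 fold change 2.89 ± 0.47). The Lef1 peak had 65 calls over both P0 samples, 17.3 CPM, and none in the adult samples. Against a floor of 3 calls over the adult group, 1.44 CPM, its P0 level was 12-fold higher. That floor allows for counting error in the adult calls only and is not an exact interval.

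Of the peaks more open at P0, 33.7% lay within 500 bp of an annotated start, as did 32.2% of the adult peaks and 39.7% of all peaks tested, and 51.3%, 40.8% and 40.4% lay over 10 kb from the nearest start of a coding gene. Distal peaks, outside genes and their promoters, were 24.8% of those at P0, 18.1% of those in adult nuclei and 19.8% of all. Introns held 30.8%, 37.8% and 30.2%. With a threshold of 0.01 and at least 2-fold change, 31.7% of P0 peaks and 16.5% of adult peaks lay at starts, and 53.7% and 51.2% lay over 10 kb from one, so that the difference in distant peaks was smaller. The median GC content was 53.3% in P0 peaks, 51.7% in adult peaks and 53.3% in all.

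Motif letters were counted in the central 300 bases of peaks away from starts, of which 4510 were more open at P0 and 3485 in adult nuclei. TCF/LEF letters stood in 7.01% of P0 peaks, 3.07% of adult peaks and 4.56% of all. SOX letters stood in 5.59%, 3.04% and 3.97%, and TFAP2 letters (GCCNNNGGC) in 14.8%, 12.7% and 12.4%. GATA letters went the other way, with 11.8% of P0 peaks and 15.4% of adult peaks against 13.5% of all.

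ETS letters (AGGAAGT) stood in 8.94% of P0 peaks, 12.5% of adult peaks and 11.1% of all, and FOX letters in 4.24%, 6.11% and 4.86%. The ESRR letters (TCAAGGTCA), read by orphan receptors of energy metabolism, stood in 0.443% of P0 peaks, 1.58% of adult peaks and 0.781% of all. The receptor motif of glucocorticoids and mineralocorticoids stood in 0.310% of P0 peaks and 0.717% of adult peaks, which were 14 and 25 peaks, and in 0.380% of all. AP-1 letters (TGANTCA) differed little, at 11.6%, 11.7% and 11.9%, as did TEAD letters (ACATTCC) at 7.14%, 7.72% and 7.72%. CTCF letters stood in 1.11% of P0 and 0.861% of adult peaks but in 3.59% of all, so called peaks of both stages held fewer. Posterior HOX, NFI and GRHL (AACCGGTT) letters stood in 13.7%, 1.62% and 0.421% of P0 peaks and in 10.96%, 0.603% and 0.201% of adult peaks. Their shares of all were 12.3%, 1.12% and 0.397%. For GRHL the P0 share was near that of all, and the counts were 19 P0 and 7 adult peaks. GATA, FOX and TCF/LEF letters can overlap other motifs, and a match is not a bound site.

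**Figure D4:**
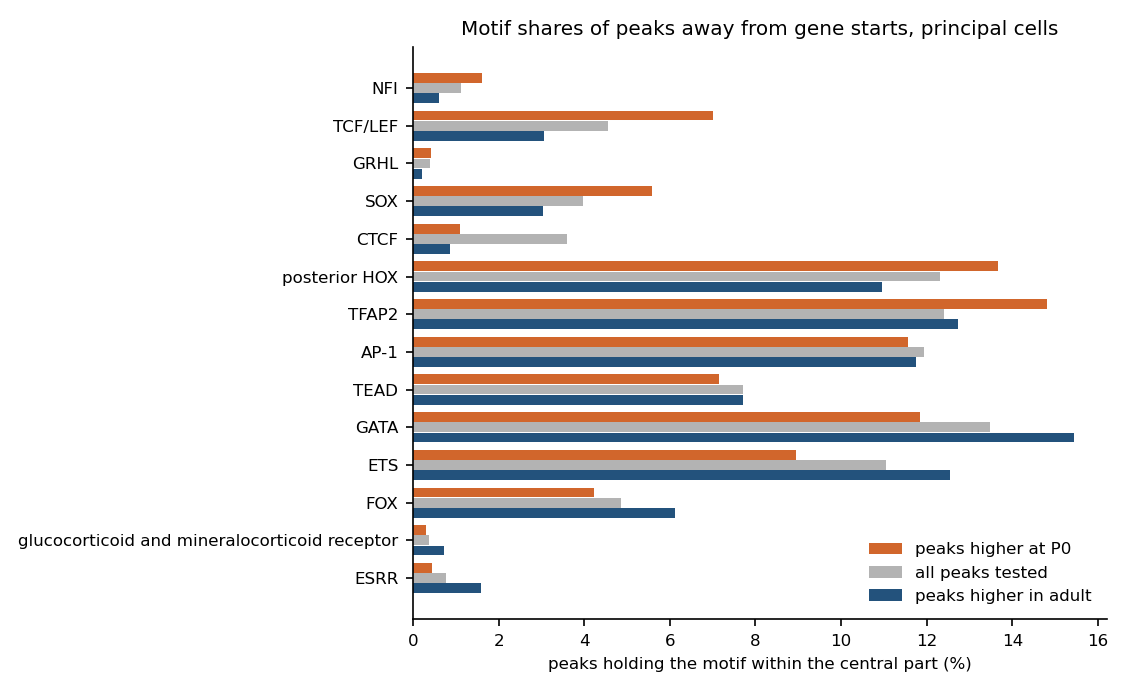
Share of peaks away from gene starts (%, linear axis from 0) that hold the letters of each of 14 motifs in their central 300 bases, for peaks more open at P0 (orange, 4510), all peaks tested (grey, 24459) and peaks more open in adult principal cells (blue, 3485). TCF/LEF and SOX bars are longest for P0 peaks, GATA, ETS, FOX and ESRR bars for adult peaks.

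The stage difference was compared with that of 2 neighbouring clusters in the same libraries, with the sample as a block. For intercalated cells, the acid-base cells of the same duct (40, 56, 94, 221 and 188 nuclei in the order of samples), 99 of 16942 genes (0.584%) differed from principal cells, 79 with the more positive P0 difference in principal cells and 20 with the more negative. Of the 15 principal cell genes, 1 differed, Ptges, a prostaglandin E synthase. It had 83.9 and 80.9 CPM at P0 and 99.1, 148 and 159 CPM in adult principal cells, and 128 and 198 CPM against 110, 99.2 and 122 CPM in intercalated cells (difference in log2 fold change -1.33 ± 0.22).

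None of the 14 tip genes differed from intercalated cells in edgeR, although the list's median difference was 0.51 and Ret (1.01), Gfra1 (0.73) and Wnt11 (0.78) had positive differences. At an unadjusted p below 0.05, 1831 genes differed over the whole table. Sgk1 differed by -1.16 ± 0.21, and intercalated cells had 108 and 164 CPM at P0 against 157, 122 and 128 CPM.

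Of the intercalated cell genes, 4 had the more positive P0 difference in principal cells. Slc26a4, the chloride-bicarbonate exchanger pendrin of type B intercalated cells, had 53.9 and 40.9 CPM in principal cells at P0 and 13.9, 7.88 and 9.28 CPM in adult samples, while intercalated cells had 47.9 and 37.2 CPM against 77.3, 86.6 and 101 CPM. The difference was 3.43 ± 0.34 (adjusted p = 2.37e-06 in edgeR). Kit and Insrr, receptor genes of intercalated cells, also had higher activity at P0 in principal cells, with overlap for Insrr at P21, at 49.6 and 55.2 CPM against 19.8, 9.19 and 10.8 CPM and at 22.3 and 27.8 CPM against 23.8, 9.19 and 6.19 CPM. Higher in adult principal cells were Atp6v0a4, a proton pump subunit, the ammonia channel genes Rhcg and Rhbg, and Slc4a9, with log2 fold changes from -0.57 to -0.87. For the whole list of 16 intercalated genes, the summed activity of principal cells was 429 and 439 CPM at P0 and 432, 539 and 525 CPM in adult samples, 22.8% to 32.3% of that of the intercalated cluster.

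For the connecting tubule cluster, the segment before the collecting duct (135, 101, 83, 294 and 266 nuclei), 1178 of 17233 genes (6.84%) differed, 503 with the more positive P0 difference in principal cells and 675 with the more negative. Of the principal cell genes, 5 differed, all with the more negative difference in principal cells. They were Elf5, Aqp3, Aqp4, Fxyd4 and Aqp2. Elf5, an ETS factor gene of principal cells, had 131 and 128 CPM at P0 and 174, 209 and 156 CPM in adult principal cells, but 174 and 129 CPM at P0 and 26.3, 69.1 and 31.3 CPM in the adult connecting tubule cluster (difference -2.22 ± 0.20, adjusted p = 2.72e-10 in edgeR).

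Of the tip genes, Etv4, Etv5 and Dusp6 had the more positive difference in principal cells and Emx2 the more negative, whereas Ret and Gfra1 did not differ, with 0.92 and -0.04. The connecting tubule label was weak at P0. The summed activity of 8 connecting tubule genes in that cluster was 404 and 408 CPM at P0 and 1632, 1373 and 1273 CPM in adult samples. The calcium handling genes Slc8a1 and Calb1 had log2 fold changes of -1.74 and -2.03 there, against 0.14 and 0.11 in principal cells.

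**Figure D5:**
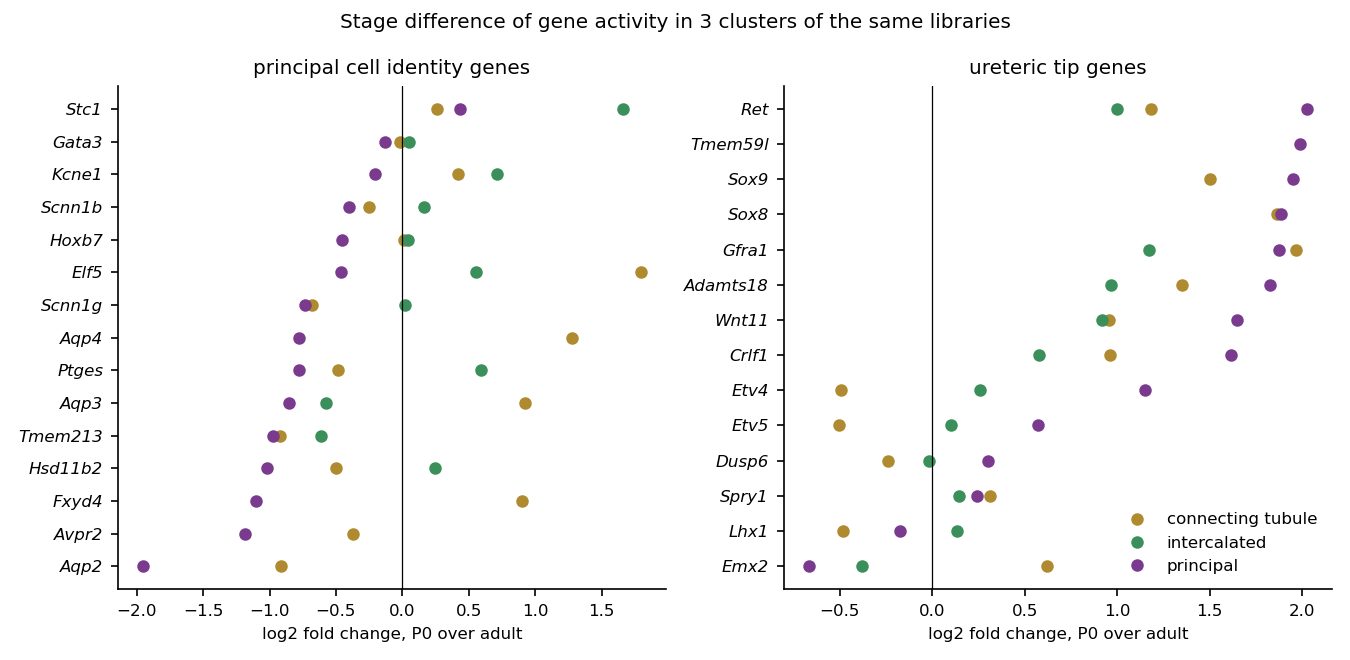
Log2 fold change of gene activity, P0 over adult, for principal cell genes (left) and ureteric tip genes (right) in principal cells (purple), intercalated cells (green) and the connecting tubule cluster (ochre) of the same 5 libraries; a missing point means that the gene was too low to be tested in that cluster. Principal cell points lie below 0 for 14 of the 15 genes on the left, and Elf5, Aqp4, Aqp3 and Fxyd4 lie above 0 in the connecting tubule cluster.

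The P21 sample was placed between the stages with peaks and genes called in the fit of P0 and P56 alone. They also had to pass the count filter of the fit that includes P21, which left 5691 of 7737 and 5296 of 6157 peaks. P21 counts therefore had a part in the choice through that filter. On a scale from 0 at the P0 mean to 1 at the P56 mean, its median position was 0.92 over 5691 peaks higher at P0 and 0.79 over 5296 peaks higher at P56. For 2949 and 2005 genes it was 0.86 in both directions. For comparison, each P56 sample set against the other had median positions from 0.86 to 1.15 in genes and from 0.94 to 1.07 in peaks, and took part in choosing them. The share of features before the P0 mean was 2.51% and 12.5% for peaks higher at P0 and at P56. The P21 sum was also the smallest of the 5.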

How the data were processed

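The authors isolated nuclei from kidneys, a piece of each in adults by the protocol, and made snATAC-seq libraries. Per the submitters' notes, reads were processed with Cell Ranger ATAC 1.1.0, and MACS2 is named. By the study's methods, nuclei were clustered with SnapATAC on bins after Harmony integration across samples, and peaks were called for each cell type and merged. The genome build is mm10, and the gene annotation used here is GENCODE release 21 of mouse. The deposited matrix of counts holds, for 300755 peaks, whether each nucleus had a fragment, as open calls, and 89197 stored zeros were read as closed. Cell types and samples were taken from the deposited annotation. How doublets were treated is not given for these nuclei in the sources used here, and no doublet caller was run here.

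Open calls of PC nuclei were summed per sample over peaks and over the peaks of each of 27802 gene windows. A peak in several windows was counted in each. Features passing filterByExpr (minimum count 10, total 15) were fitted in edgeR 4.0.16 (R 4.3.3) with TMM scaling and without a block, P0 against P21 and P56 together. SE is the log2 fold change over the root of F. TMM factors ran from 0.978 to 1.01 and the biological coefficient of variation was 0.0892. Replicate numbers do not pair samples across stages by the labels, and the deviations of same-numbered P0 and P56 samples correlated at 0.034. Clusters were compared by an interaction term with the sample as a block. The fits were tested on simulated data.

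Members and lists were chosen with earlier results of these data known. Named genes were the defining or lowest-p members of lists and, in each direction, the 10 coding genes of largest fold among those called, not overlapping between stages and above the median level. Named peaks were the 8 of largest fold in each direction open in at least 20% of nuclei in every sample of the higher stage, plus called peaks within 50 kb of the Aqp2 and Ret starts. One of these peaks, on chromosome 18, and a listed gene are not reported here. Promoter and peak sequences are from RefSeq GRCm38.p6. Alternatives were DESeq2 1.42.0, other scalings, no filter, a replicate block, each sample left out, equal numbers of nuclei, nuclei thinned to 1000 open peaks, peaks at starts only, Fisher's exact test over nuclei, and a stricter threshold. Tables and figures were made in Python 3.11.15 (pandas 2.3.3, numpy 2.4.6, matplotlib 3.10.9, scipy 1.17.1). The bulk ATAC-seq and scRNA-seq samples were not analysed here.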

Additional observations from a re-analysis of the deposited data

Results flagged for a closer look

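The stage difference of principal cells differed from that of a neighbouring cluster for the genes named below. Each value is the difference of log2 fold changes, P0 over adult, in principal cells minus the other cluster, and the difference itself was tested in edgeR as an interaction with the sample as a block. The adult and newborn groups are too small for a search for outlying samples.

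Against intercalated cells, 99 genes differed. The difference was 3.43 for Slc26a4, 2.42 for Kit and 1.71 for Insrr, all intercalated cell genes. It was 3.42 for Aqp6, an intracellular water channel of intercalated cells that was too low to be tested in principal cells alone. For genes more open in adult principal cells it was -1.33 for Ptges, -1.40 for Fxyd2 and -0.93 for Zbtb16. Among the genes led by P0, it was 1.79 for Lgr6 and 1.84 for Chst3. Without the sample as a block, 3 genes differed in place of 99.

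Against the connecting tubule cluster, 1178 genes differed. Genes of calcium and magnesium handling in the distal nephron had differences of 1.85 for Slc8a1, 2.14 for Calb1, 1.89 for Trpm6 and 1.16 for Kl. Water channel genes had -1.87 for Aqp3, -1.99 for Aqp4 and -1.01 for Aqp2 (adjusted p = 0.0469 in edgeR), and the pump regulator Fxyd4 had -2.005. Factors and signalling genes had -2.22 for Elf5, 1.73 for Etv4, 1.15 for Etv5, -1.24 for Emx2, 0.61 for Dusp6 and -0.74 for Zbtb16, and the potassium channel gene Kcnj1 had 0.90. Without the block, 261 genes differed.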

How the results depend on the processing

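On the same nuclei and windows, every called peak and gene that could be fitted kept its direction in DESeq2, under other scalings, without the filter, with the replicate block and with any sample left out. With equal nuclei 99.9% of called peaks and of called genes did so, with thinned nuclei 90.5% of 1603 peaks and 97.1% of 3115 genes, with peaks at starts only 97.7% of 4395 genes. Fisher's test, with 98.0% of 11941 peaks, takes nuclei of a sample as replicates, which they are not, and supports no call. Counts moved more. Peaks higher at P0 and in adult nuclei (6801 and 5140) became 3631 and 2791 in DESeq2, 1430 and 912 with equal nuclei and 27 and 20 with thinned nuclei. They became 19556 and 3373 by Fisher's exact test over nuclei, where P0 calls were 85.3% in place of 57.0%. Genes (3254 and 2302) became 1348 and 737 in DESeq2, 1733 and 1013 with equal nuclei and 413 and 137 with thinned nuclei.

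Without the filter on low counts, edgeR called 0 peaks in either direction, while 36550 of 278469 had an unadjusted p below 0.05. Leaving out 1 sample gave 1697 to 9063 peaks and 980 to 3981 genes at P0, and 876 to 8678 peaks and 261 to 3624 genes in adult nuclei. The counts moved by more than 1.5 times without P0 replicate 1 (1697 and 876 peaks; 980 and 261 genes), without P0 replicate 2 (1924 and 924; 1255 and 350) and without P56 replicate 2 (4367 and 3332; 1960 and 1076), and in adult calls without P56 replicate 1 (8678 peaks, 3624 genes). A lone P0 sample was assumed to vary like the others. With the replicate block, 5865 and 3980 peaks and 2734 and 1806 genes were called. Without the sample as a block, 3 genes differed from intercalated cells and 261 from the connecting tubule cluster.

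With the stricter threshold, distal peaks made 26.3% at P0 and 20.7% in adult nuclei, starts 31.7% and 16.5%, and TCF/LEF letters 7.90% and 2.22%. Over whole peaks TCF/LEF letters stood in 16.4% and 9.10%. Of 167 named results, 49 kept their status, called or not called, under every alternative run for them. The 167 include 6 motif shares, which carry no call and moved when whole peaks were searched. Calls were lost by 30 results in DESeq2 and by 59 with thinned nuclei. Without P0 replicate 1 or 2, more results lost their call than in DESeq2. Those whose sign turned were not called in the reported fit. With single samples left out, log2 fold changes ran from -0.31 to 0.061 for Gata3, from -0.42 to 0.068 for Kcne1, from -0.41 to 0.16 for Lhx1 and from -0.77 to 0.16 for Ctnnb1, each positive without P56 replicate 2, and Gata3 and Ctnnb1 were called without P56 replicate 1. With thinned nuclei they were -0.40 for Stc1, 0.28 for Lhx1, -0.24 for Mki67 and 0.0053 for Wnt9b, and with peaks at starts only 0.30 for Kcne1 and 0.16 for Wnt9b. The Aqp5 start peak ran from -0.46 to 0.056 (without P21 replicate 1) and had 0.34 by Fisher's test, and the peak 17485 bp downstream of Aqp2 ran from -0.18 (without P56 replicate 1) to 0.26 and had -0.10 without P0 replicate 1. Left-out samples, an alternative chosen after seeing the data for these measures, gave differences of 2.97 to 3.30 percentage points in the principal cell share and 1645 to 3239 in median open peaks. The cause of these changes was not tested. The 103 nuclei at P21 limit what a single sample at that age can show.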

Other observations

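In P0 replicate 1 the Aqp2 window was open in 8.94% of the 123 nuclei with an open Ret window and in 17.3% of the 271 others. In P0 replicate 2 it was open in 24.5% of 110 and in 18.3% of 240 nuclei. The median depth was 7327 and 6332 open peaks in replicate 1 and 9904 and 6524 in replicate 2, so the order differed between the replicates and no separation of Ret-open from Aqp2-open nuclei was measured at this depth. For Gfra1, nuclei with an open window had the Aqp2 window open more often in both replicates, with 18.3% against 7.58% and 23.7% against 11.3%, and were also deeper (7319 against 5140 and 8125 against 4559 open peaks).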
